A study of Mus musculus with 3 samples.

Results

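DNA methylation writers and erasers were followed as 8 mouse genes: the DNA methyltransferase genes Dnmt1, Dnmt3a and Dnmt3b, their cofactor genes Dnmt3l and Uhrf1, and the dioxygenase genes Tet1, Tet2 and Tet3. The members were taken by name, and every probe set with a single gene symbol was read, 20 probe sets in all, among 18193 genes with such a probe set. At least 1 array was at or above the floor, an intensity of 25.6 (the 40th percentile of the table), in 19 of the 20 probe sets and in 7 of the 8 genes. Tet3 stayed under it.

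Expression was measured on Affymetrix arrays in progeny of A2.snail mouse embryonic stem cells, a line in which doxycycline switches on the transcription factor Snail. The cells grew as embryoid bodies, floating aggregates that model early germ layer formation, in serum with the Wnt inhibitor DKK1, and were sorted at day 3 on Flk1, the VEGF receptor that marks blood and vessel forming mesoderm. The 3 groups, with 1 array each, were the Flk1+ fraction (Snail-induced Flk1+) and the Flk1- fraction (Snail-induced Flk1-) of embryoid bodies that received doxycycline from day 2, at 250 ng/mL, and the Flk1- fraction of embryoid bodies that received none (untreated Flk1-). All of them carried the inducible Snail gene and had DKK1. Untreated Flk1+ cells, and doxycycline-treated cells without the Snail gene, were not analysed here, so Snail, doxycycline and the Flk1 gate are not fully separated.

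Each array gave 45037 probe set intensities on a linear scale, with medians of 44.6, 42.4 and 42.7 in Snail-induced Flk1+, Snail-induced Flk1- and untreated Flk1- cells. With 1 array per group there is no replicate spread, no p-value is given, and the number of arrays limits the precision. The sorted gene Kdr read 404, 9.73 and 10.5 on these arrays, while the Snai1 probe set read 19.8, 13.1 and 29.1, near or under the floor, and does not show the induced gene. Summed over 8 endothelial and hemangioblast markers the intensity was 9569, 1121 and 631, and over 12 naive pluripotency genes it was 5415, 15654 and 14390 in the same order. Dppa5a alone read 3223, 8961 and 8430, and made up most of each naive sum. Over 7 epithelial markers the summed intensity was 1858, 6538 and 16094. The feeder fibroblast markers summed to 476, 769 and 456, with Col1a1 under the floor on every array. The primitive and visceral endoderm markers summed to 2150, 617 and 412, with Foxa2, Afp and Ttr under the floor on every array. Sox7 alone read 1291.3, 95.06 and 95.52, and made up most of the endoderm sum in Snail-induced Flk1+ cells. All 4 measured endoderm markers were higher in Snail-induced Flk1+ than in Snail-induced Flk1- cells. Of these, 2 (Gata6 and Sox7) were at least 2-fold higher. The part of these cell types in the results below was not tested.

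Methylation of cytosine in CpG dinucleotides is written by Dnmt3a and Dnmt3b on unmethylated DNA, with Dnmt3l as a catalytically inactive partner that stimulates them. It is copied onto the new strand after replication by Dnmt1, which Uhrf1 brings to hemimethylated sites. Tet1, Tet2 and Tet3 oxidise methylcytosine to hydroxymethylcytosine and beyond, which opens the way to its loss. In the mouse embryo, genome methylation is low in the naive epiblast of the blastocyst and is laid down as the epiblast becomes primed for gastrulation, when Dnmt3b is a characteristic gene, and embryonic stem cells are known for high Tet1, Tet2 and Dnmt3l.

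The promoters of the genes discussed most below are shown because CpG dinucleotides, the substrate of these enzymes, are so unevenly spread among them. The RefSeq windows run from 250 bases before to 50 bases after a transcript start (GRCm38.p6), are printed 5′ to 3′ on the strand of the gene, and carry CpG dinucleotides in capitals. The Tet2 window lies at chr3:133544341-133544640 (minus strand), the Tet1 window at chr10:62887275-62887574 (minus strand), the Dnmt3b window at chr2:153649199-153649498 (plus strand) and the first of 3 Dnmt3l windows at chr10:78042037-78042336 (plus strand).
Tet2: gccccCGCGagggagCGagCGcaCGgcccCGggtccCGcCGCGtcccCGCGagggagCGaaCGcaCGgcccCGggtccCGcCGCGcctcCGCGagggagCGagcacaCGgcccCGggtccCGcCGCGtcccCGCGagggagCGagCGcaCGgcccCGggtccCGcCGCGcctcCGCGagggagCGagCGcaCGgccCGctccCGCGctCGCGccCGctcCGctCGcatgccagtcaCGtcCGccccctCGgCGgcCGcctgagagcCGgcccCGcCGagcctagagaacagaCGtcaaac
Tet1: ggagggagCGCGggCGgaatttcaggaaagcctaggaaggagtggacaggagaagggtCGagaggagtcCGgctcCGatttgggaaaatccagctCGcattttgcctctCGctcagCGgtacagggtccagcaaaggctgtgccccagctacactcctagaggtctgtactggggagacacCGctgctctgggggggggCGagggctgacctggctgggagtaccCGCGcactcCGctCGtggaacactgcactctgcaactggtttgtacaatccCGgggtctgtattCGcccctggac
Dnmt3b: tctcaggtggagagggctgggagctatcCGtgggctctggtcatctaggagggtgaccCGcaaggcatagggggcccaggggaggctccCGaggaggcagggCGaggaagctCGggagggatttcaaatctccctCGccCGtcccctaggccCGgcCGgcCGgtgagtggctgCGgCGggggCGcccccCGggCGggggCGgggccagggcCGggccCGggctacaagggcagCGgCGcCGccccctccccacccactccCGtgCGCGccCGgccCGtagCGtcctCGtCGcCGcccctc
Dnmt3l: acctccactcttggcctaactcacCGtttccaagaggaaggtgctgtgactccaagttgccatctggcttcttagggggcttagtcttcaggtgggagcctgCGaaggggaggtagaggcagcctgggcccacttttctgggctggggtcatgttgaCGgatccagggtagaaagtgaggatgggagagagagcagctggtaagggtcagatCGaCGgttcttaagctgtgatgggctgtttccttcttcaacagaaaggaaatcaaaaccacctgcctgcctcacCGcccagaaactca

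Among 32851 RefSeq promoter windows of 300 bases the median number of CpG dinucleotides was 7, with quartiles of 3 and 20. The Tet2 window held 57, more than 99.8% of all windows, and the Dnmt3b window held 30, more than 88.3%. Tet1 had 17 in its window. Dnmt3l had 6, 4 and 3 in its 3 windows, all under the median. The other members ranged more widely: the first Dnmt1 window held 2 and the last held 33, and Dnmt3a held 46, 47 and 18, its first 2 windows overlapping.

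**Figure D1:**
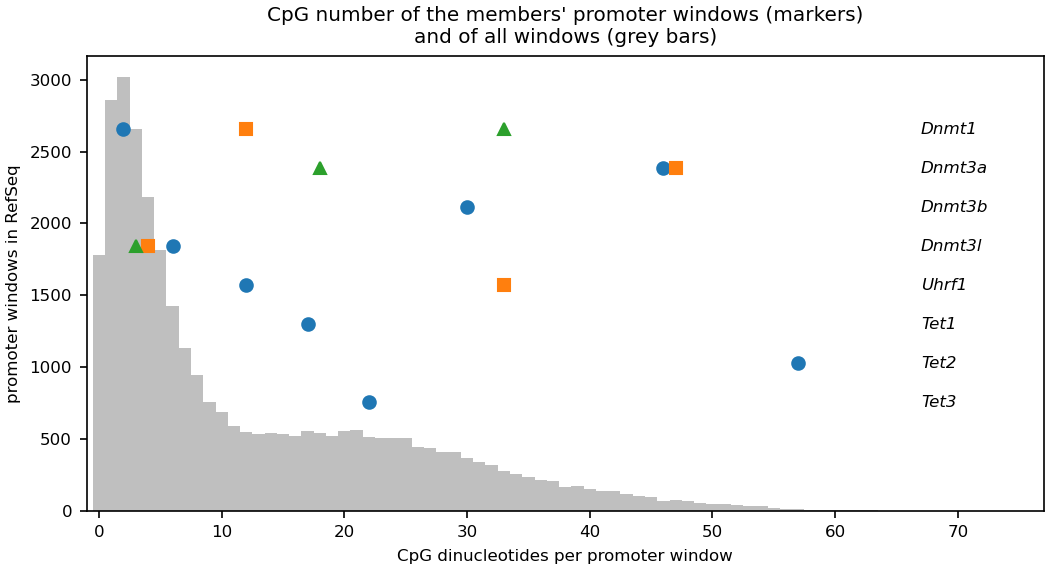
CpG dinucleotides per 300-base promoter window, with grey bars for the number of RefSeq windows at each value and markers for the windows of each member (circle, then square, then triangle for successive windows along the gene, height arbitrary). Tet2 lies at 57 and the 3 Dnmt3l windows at 6, 4 and 3.

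The motif CAGGTG, an E-box that Snail proteins are known to bind, was searched on both strands. It was found in 3 of the 15 member windows, against 20.2% of all windows. The Dnmt3b window has it starting 247 bases before the start, on the strand of the gene. The first Dnmt3l window has it 162 bases before the start, on that strand, and again at base 21 after the start on the opposite strand. The first Dnmt1 window has it at base 36 after the start. The GC box GGGCGG, bound by Sp1, was found in 12 of the 15 windows, against 35.7% of all windows, and at least once in each of the 8 genes. It contains a CpG itself, and 11 of the 15 member windows were above the median CpG number. The overlapping Dnmt3a windows share some of these sites. The motifs can overlap by at most 1 base on either strand, and a match describes letters only.

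The main result was a split among the members between Flk1+ and Flk1- cells. Tet2 was higher in Snail-induced Flk1+ cells, Dnmt3l and Dnmt3b were lower, Tet1 was somewhat lower, Dnmt3a was somewhat higher, and Dnmt1 and Uhrf1 differed little. Folds are taken on log2(intensity + 9.53), where the constant is the 20th percentile of the table and makes folds of dim genes too small. In bulk RNA, fewer cells expressing a gene and less RNA per cell cannot be told apart.

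**Figure D2:**
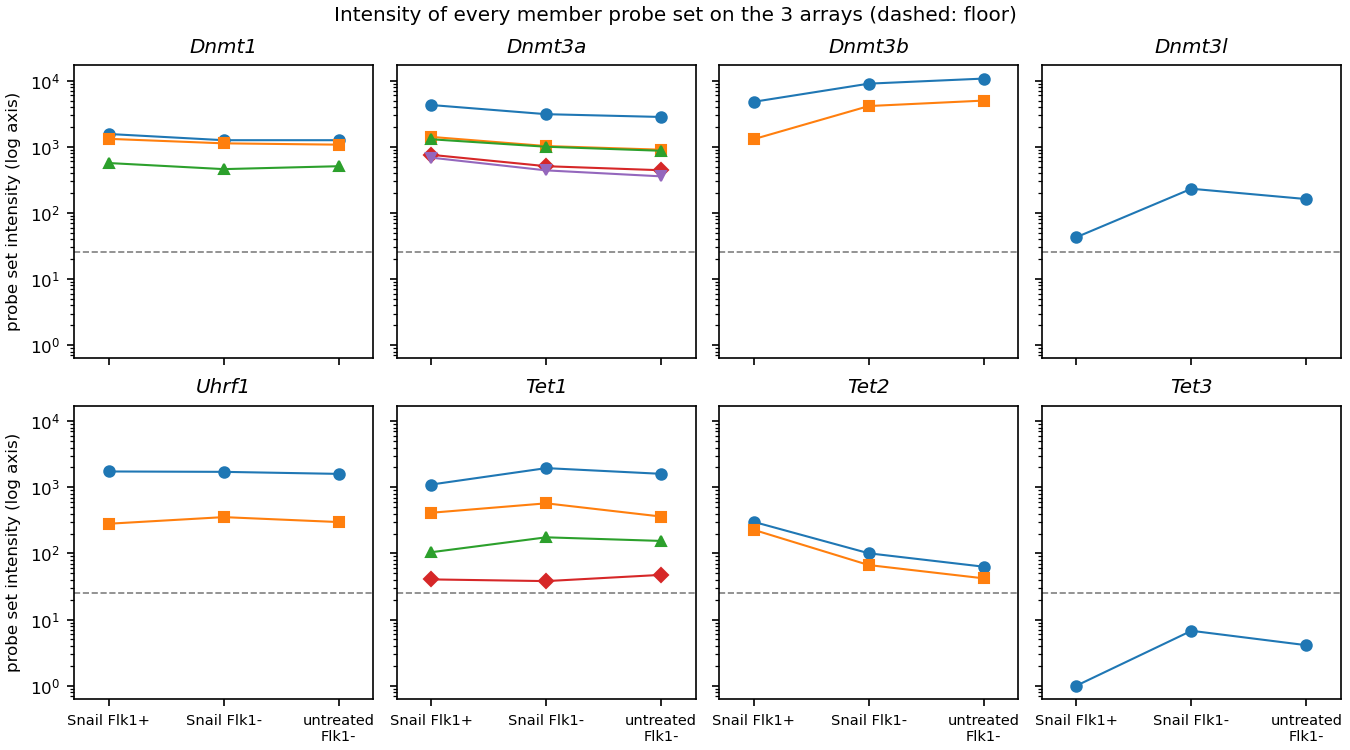
Intensity of each member probe set (log axis) on the Snail-induced Flk1+, Snail-induced Flk1- and untreated Flk1- arrays, 1 array each, with markers for the probe sets of a gene from the brightest (circle) down and a dashed line at the floor of 25.6. Tet2 is highest and Dnmt3b and Dnmt3l are lowest on the Flk1+ array, and Tet3 is under the floor throughout.

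Dnmt3l has a single probe set, and it read 43.0 in Snail-induced Flk1+, 232 in Snail-induced Flk1- and 162 in untreated Flk1- cells. The Flk1+ array was the low one, within reach of the floor. It was 4.60-fold lower in Snail-induced Flk1+ than in Snail-induced Flk1- cells (log2 difference -2.20), and 75 of 13974 measured genes had a more negative difference. Its suffix, _s_at, marks probes shared by several transcripts, so the reading may include others.

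Dnmt3b, a de novo methyltransferase gene, has 2 probe sets. The brightest read 4801 in Snail-induced Flk1+, 9029.9 in Snail-induced Flk1- and 10773 in untreated Flk1- cells. The other read 1308, 4139.8 and 5005 in the same order. Both put the Flk1+ array lowest and the untreated array highest, but they differed in size. Between Snail-induced Flk1+ and Snail-induced Flk1- cells the brightest probe set was 1.88-fold lower (-0.91), short of 2-fold, and the other was 3.15-fold lower (-1.66). Both probe sets were designed from the same source sequence and carry the suffix _a_at, for probes that read several transcripts of 1 gene.

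Dnmt3a, the other de novo methyltransferase gene, went the opposite way on a smaller scale. Its brightest probe set read 4288 in Snail-induced Flk1+, 3117 in Snail-induced Flk1- and 2829 in untreated Flk1- cells. All 5 of its probe sets had this same order of the 3 arrays. In Snail-induced Flk1+ against Snail-induced Flk1- cells they were between 1.29-fold and 1.55-fold higher, with log2 differences of 0.37 to 0.63. The 5 come from 1 source sequence, so they are not independent readings, and which Dnmt3a isoforms they cover was not examined here.

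The unequal change of Dnmt3a and Dnmt3b hardly depends on how the arrays were scaled, since a constant factor per array cancels between genes of that array, apart from the added constant. On their brightest probe sets, the Dnmt3a reading relative to the Dnmt3b reading was 2.58-fold higher in Snail-induced Flk1+ than in Snail-induced Flk1- cells. The 10 pairings of their probe sets reuse the same readings and are not separate observations. Over all 10 the log2 shift was 1.28 to 2.28, in favour of Dnmt3a each time. The same shift for Snail-induced Flk1- against untreated Flk1- cells was 1.31-fold, with 0.39 to 0.57 over the pairings.

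The maintenance genes were close to level. Dnmt1 read 1564 in Snail-induced Flk1+, 1259.5 in Snail-induced Flk1- and 1259 in untreated Flk1- cells on its brightest probe set. Its 3 probe sets were 1.17-fold to 1.24-fold higher in Snail-induced Flk1+ than in Snail-induced Flk1- cells, although 2 of them end in _x_at, the suffix for probes open to cross-hybridisation. Uhrf1 read 1737, 1714 and 1597 on its brightest probe set and 281, 354 and 298 on the other. Its probe sets went opposite ways between Snail-induced Flk1+ and Snail-induced Flk1- cells, at 0.02 and -0.32 on the log2 scale, so no direction is given.

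Beside these, 0 of 22 measured genes of DNA replication and S phase, where Dnmt1 and Uhrf1 are known to act, were at least 2-fold apart in any of the 3 comparisons. Their median log2 difference was -0.19 in Snail-induced Flk1+ against Snail-induced Flk1- cells, with 5 genes above 0 and 17 below. Over all measured genes that median was 0.00. The largest differences were those of Tyms at 1.43-fold lower and Prim1, a DNA primase subunit gene, at 1.34-fold lower. Pcna, the replication clamp that also binds Dnmt1, read 9800, 10781 and 10593 in Snail-induced Flk1+, Snail-induced Flk1- and untreated Flk1- cells.

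The Tet genes split. Tet2 read 299.95 in Snail-induced Flk1+, 100.45 in Snail-induced Flk1- and 63.0 in untreated Flk1- cells on its brightest probe set. The other, from a different source sequence, read 227, 66.65 and 42.0. Both rank the arrays alike, with the Flk1+ array standing well above the others. In Snail-induced Flk1+ against Snail-induced Flk1- cells they were 2.81-fold and 3.11-fold higher (1.49 and 1.64), and 300 of 13974 measured genes had a larger difference than the brightest.

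Tet1 read 1102 in Snail-induced Flk1+, 1953 in Snail-induced Flk1- and 1600.1 in untreated Flk1- cells on its brightest probe set. The other 3 read 413, 573 and 361, then 104, 175 and 155, and then 40.5, 38.1 and 47.4. In Snail-induced Flk1+ against Snail-induced Flk1- cells the brighter 3 were 1.76-fold, 1.38-fold and 1.62-fold lower, and the dimmest, near the floor, was 1.05-fold higher. None of them reached 2-fold.

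The Tet2 reading relative to the Tet1 reading was 4.97-fold higher in Snail-induced Flk1+ than in Snail-induced Flk1- cells on the brightest probe sets. It was higher in all 8 pairings (log2 shift of 1.42 to 2.46), which reuse the same readings. In Snail-induced Flk1- against untreated Flk1- cells it was 1.24-fold higher, and higher in 6 of the 8 pairings (-0.09 to 0.86). Tet3 read 1.0, 6.76 and 4.09 in Snail-induced Flk1+, Snail-induced Flk1- and untreated Flk1- cells on its single probe set, under the floor in all 3 groups, and no fold is given.

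Counted by the brightest probe set of each gene, the 2-fold line was passed upwards by 1 of the 7 measured members (Tet2) and downwards by 1 (Dnmt3l) in Snail-induced Flk1+ against Snail-induced Flk1- cells. Among all 13974 measured genes these shares were 4.94% higher and 4.94% lower. The members' median log2 difference was 0.02, against 0.00 over all measured genes. With probe sets averaged per gene, Dnmt3b also passed 2-fold (-1.28). Leaving out probe sets with the suffixes _a_at, _s_at and _x_at removes Dnmt3b, Dnmt3l and Dnmt1, since all of theirs carry one, and leaves 0 members lower among 4. At 1.5-fold, Tet2 was the 1 higher member (12.6% of all genes), and Dnmt3b, Dnmt3l and Tet1 were the 3 lower ones (11.7%). At 3-fold, 0 were higher (1.80%) and 1, Dnmt3l, was lower (1.66%).

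**Figure D3:**
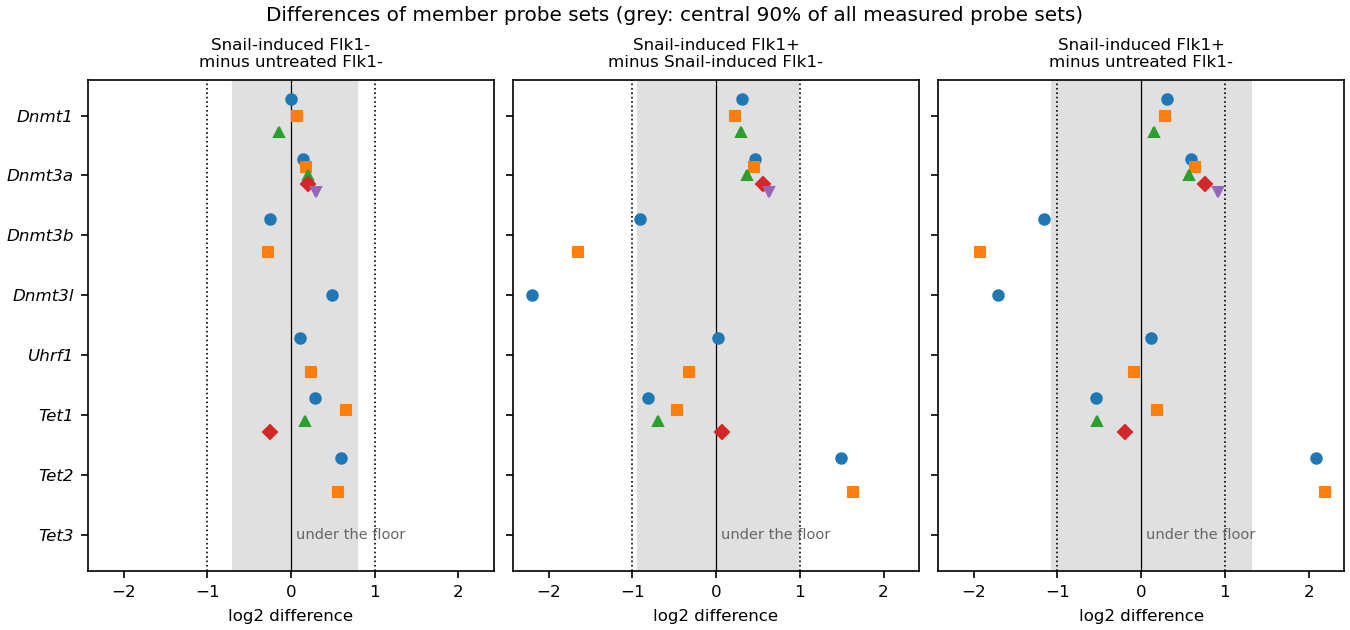
Log2 difference of every measured member probe set in the 3 comparisons, 1 marker per probe set from the brightest (circle) down, with dotted lines at 2-fold and a grey band for the central 90% of all measured probe sets. Tet2 lies at 1.49 and 1.64 and Dnmt3l at -2.20 in the middle panel, while all member probe sets lie within 2-fold in the left panel.

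Between Snail-induced Flk1- and untreated Flk1- cells fewer genes passed 2-fold, among the members and among all measured genes alike. Of the 7 measured members, 0 were at least 2-fold apart, against 3.00% of all measured genes higher and 2.06% lower by that rule. With shares that low, the 0 of 7 is not read as a result about the members. The members' median was 0.14, against 0.04 over all measured genes. At 1.5-fold, 1 member, Tet2, was higher (8.57% of all genes) and 0 were lower (7.84%), and at 3-fold 0 were higher (0.830%) or lower (0.236%). By the brightest probe set of each gene, Tet2 had the largest difference, 1.52-fold higher in Snail-induced Flk1- than in untreated Flk1- cells, followed by Dnmt3l at 1.41-fold higher. The other Tet2 probe set was 1.48-fold higher. For Tet1, 3 of the 4 probe sets were higher, at 1.22-fold, 1.57-fold and 1.13-fold, and the dimmest was 1.19-fold lower.

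Dnmt3b was 1.19-fold and 1.21-fold lower on its 2 probe sets, and Dnmt3a was 1.10-fold to 1.22-fold higher on its 5. Dnmt1 was level on its brightest probe set, with a log2 difference of 0.00 that turned to -0.05 with quantile normalisation and -0.10 with centring of the arrays. Dnmt3l and Tet1 thus lay above untreated cells in Snail-induced Flk1- cells and below them in Snail-induced Flk1+ cells on their brightest probe sets.

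Snail-induced Flk1+ cells set against untreated Flk1- cells join induction and gate, and on the log scale this comparison is the sum of the other 2, with which it shares arrays. Tet2 was 4.27-fold and 4.60-fold higher on its 2 probe sets, Dnmt3l was 3.27-fold lower, and Dnmt3b was 2.24-fold and 3.81-fold lower. Dnmt3a was 1.49-fold to 1.89-fold higher on its 5 probe sets, short of 2-fold on each. By the brightest probe set, 1 of the 7 measured members was past 2-fold upwards and 2 downwards, against 8.24% and 6.47% of all measured genes. At 1.5-fold, 2 members, Tet2 and Dnmt3a, were higher (16.9% of all genes) and 2 lower (14.2%), and at 3-fold 1 was higher (3.78%) and 1 lower (2.86%). The Tet1 probe sets disagreed, with 3 lower and 1, ending in _s_at, 1.14-fold higher.

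Genes with several measured probe sets often have them all on 1 side: 56.6% of 6493 such genes did in Snail-induced Flk1- against untreated Flk1- cells and 59.2% in Snail-induced Flk1+ against Snail-induced Flk1- cells. The share was 64.6% in Snail-induced Flk1+ against untreated Flk1- cells. Among the 6 members with several measured probe sets, 4 did so in each comparison, close to these shares. They were Dnmt3a, Dnmt3b and Tet2 each time, with Uhrf1 in Snail-induced Flk1- against untreated Flk1- cells and Dnmt1 in the other 2 comparisons.

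Several genes around these enzymes were read from lists of known function. Of 9 measured genes listed as readers of methylated CpG or of their families, all 9 were above 0 in Snail-induced Flk1- against untreated Flk1- cells. Their median was 0.36, against 0.04 over all measured genes, and 0 reached 2-fold. The share of all measured genes above 0 was not counted. Of all 13974, 7668 had a larger difference than that of Dnmt1 (0.00). With quantile normalisation, or with centring of the arrays, 8 of the 9 were above 0, and with the mean of all probe sets 7 of 8. Mbd1, Zbtb4 and Zbtb38 had probe sets that disagreed in this comparison, and Zbtb4 was under the floor in untreated Flk1- cells (22.8). Mbd2, a methyl-CpG binding repressor, read 941 in Snail-induced Flk1+, 512 in Snail-induced Flk1- and 264 in untreated Flk1- cells, and was 3.48-fold higher in Flk1+ than in untreated cells. Mbd1, of the same family, was 2.35-fold higher in that comparison. Zbtb38, a zinc finger reader, read 92.9, 215 and 202, and was 2.20-fold lower in Snail-induced Flk1+ than in Snail-induced Flk1- cells, with 1 of its 2 probe sets going the other way. Over the list, 0 were at least 2-fold higher and 1 lower in that comparison.

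In the list of active demethylation and base excision repair, 1 of 11 measured genes was at least 2-fold higher and 0 lower in Snail-induced Flk1+ against Snail-induced Flk1- cells, with a median of -0.30 and 9 genes below 0. The one higher was Gadd45g, a stress and growth arrest gene whose family has been linked to demethylation. It read 1326 in Snail-induced Flk1+, 120.0 in Snail-induced Flk1- and 98.25 in untreated Flk1- cells, which made it 10.3-fold higher in Snail-induced Flk1+ than in Snail-induced Flk1- cells on its single probe set. Parp1 and Ung, genes of base repair, had log2 differences of -0.59 and -0.51 there. Against untreated Flk1- cells, Snail-induced Flk1- cells had 0 genes of the list past 2-fold, the largest differences being Gadd45b at 1.32-fold higher and Ung at 1.27-fold lower.

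Among 22 measured partners and guides of the enzymes, 0 were at least 2-fold higher and 1 lower by their log2 difference in Snail-induced Flk1+ against Snail-induced Flk1- cells, with a median of -0.01. The one lower was Prdm14, a repressor of de novo methyltransferase genes in naive mouse stem cells, which read 3.46 in Snail-induced Flk1+, 53.7 in Snail-induced Flk1- and 43.7 in untreated Flk1- cells. It was at least 2.10-fold lower, the brighter value being set against the floor. Dppa3, which shields methylated DNA from oxidation in the mouse zygote, read 23.0, 54.9 and 40.5 in the same order. Its log2 difference of -0.98 was not counted, although its bound against the floor, at least 2.15-fold lower, passes 2-fold. The bound is taken without the added constant, so by it 2 genes of the list, Prdm14 and Dppa3, were lower.

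Cxxc4, a CXXC zinc finger protein gene that is the next protein-coding gene to one side of Tet2 in the RefSeq table and is known to lower Tet2 protein, read 311 in Snail-induced Flk1+, 166 in Snail-induced Flk1- and 71.6 in untreated Flk1- cells. It was the one list member past 2-fold in Snail-induced Flk1- against untreated Flk1- cells, 2.17-fold higher, and both its probe sets were higher. Like Tet2, it was highest in Snail-induced Flk1+ and lowest in untreated Flk1- cells. The broadly expressed partners Trim28, Hdac1 and Kdm1a stayed within 1.16-fold in all 3 comparisons.

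In the list for methyl donor and 2-oxoglutarate supply, the cosubstrate side of these reactions, 0 of 13 measured genes passed 2-fold in Snail-induced Flk1+ against Snail-induced Flk1- cells (median -0.07). Mthfd1, of one-carbon metabolism, was 1.52-fold lower there and Idh2, a mitochondrial isocitrate dehydrogenase, 1.31-fold higher. Gnmt, a glycine methyltransferase that consumes the methyl donor, read 15.3, 24.7 and 66.4 in Snail-induced Flk1+, Snail-induced Flk1- and untreated Flk1- cells and was at least 2.60-fold lower in Snail-induced Flk1- than in untreated Flk1- cells.

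Of 11 measured germline genes known to be held silent by promoter methylation, 0 were at least 2-fold higher and 2 lower by their log2 difference in Snail-induced Flk1+ against Snail-induced Flk1- cells, with a median of -0.20. Both were under the floor in Snail-induced Flk1+ cells, and the bound passes 2-fold for 1 of them. Hormad1, a meiotic chromosome protein gene, read 17.0, 76.9 and 50.6 in Snail-induced Flk1+, Snail-induced Flk1- and untreated Flk1- cells, and was at least 3.01-fold lower. Tdrd1 read 8.98, 31.15 and 11.8, and the floor bounds its difference only at 1.22-fold or more. Stk31 read 141, 142 and 65.6, and was 2.02-fold higher in Snail-induced Flk1- than in untreated Flk1- cells. Ddx4, a germ cell RNA helicase gene, read 1438, 1269 and 872 and stayed within 2-fold. Sycp3 read 2033, 2500 and 2678, and Mael read 585, 674 and 917. These genes were far above the floor on every array, so not all of the list was silent here.

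Most of the listed stem cell and epiblast genes were lower beside Dnmt3b and Dnmt3l. In Snail-induced Flk1+ against Snail-induced Flk1- cells, the naive pluripotency list had 9 of its 12 measured genes below the 2-fold line and 1, Tbx3, above it by the log2 difference (median -1.78), and the primed epiblast list had 6 of 10 below and 0 above (median -1.41). Tbx3 read 35.6 in Snail-induced Flk1+ cells and 9.97, under the floor, in Snail-induced Flk1- cells, so it was at least 1.39-fold higher, a bound that does not reach 2-fold. Klf4, of the naive list, read 765, 639 and 391 in Snail-induced Flk1+, Snail-induced Flk1- and untreated Flk1- cells. Lef1, of the primed list, read 675, 515 and 504 in that order. Both went the other way, 1.19-fold and 1.31-fold higher in Snail-induced Flk1+ than in Snail-induced Flk1- cells. Of the 9 lower naive genes, 7 were at or above the floor on both arrays and the bounds of the other 2 pass 2-fold. Zfp42, also called Rex1, read 383, 1574 and 1152 in Snail-induced Flk1+, Snail-induced Flk1- and untreated Flk1- cells, and Otx2, an epiblast transcription factor gene, read 807, 2045 and 2285. The order of arrays seen in Dnmt3l, lowest in Snail-induced Flk1+ and highest in Snail-induced Flk1- cells, was found in 7 of the 12 naive and 4 of the 10 primed genes. The order of Dnmt3b, highest in untreated Flk1- cells, was found in 3 naive and 5 primed genes. Which order a gene has turns on Snail-induced Flk1- against untreated Flk1- cells, where some differences were small (Utf1 1.04-fold, Dppa5a 1.06-fold). In that comparison 5, 3 and 2 of the 10 primed genes were above 0 as deposited, with quantile normalisation and with centring. For the 12 naive genes it was 8, 8 and 7. The share of all measured genes with either order was not counted, so these counts do not set the lists apart from other genes. In Snail-induced Flk1- against untreated Flk1- cells, 0 naive genes were past 2-fold (median 0.21), and Fgf5 was the one primed gene that was, 2.60-fold lower. The part of these cells in the Dnmt3b and Dnmt3l readings was not tested.

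**Figure D4:**
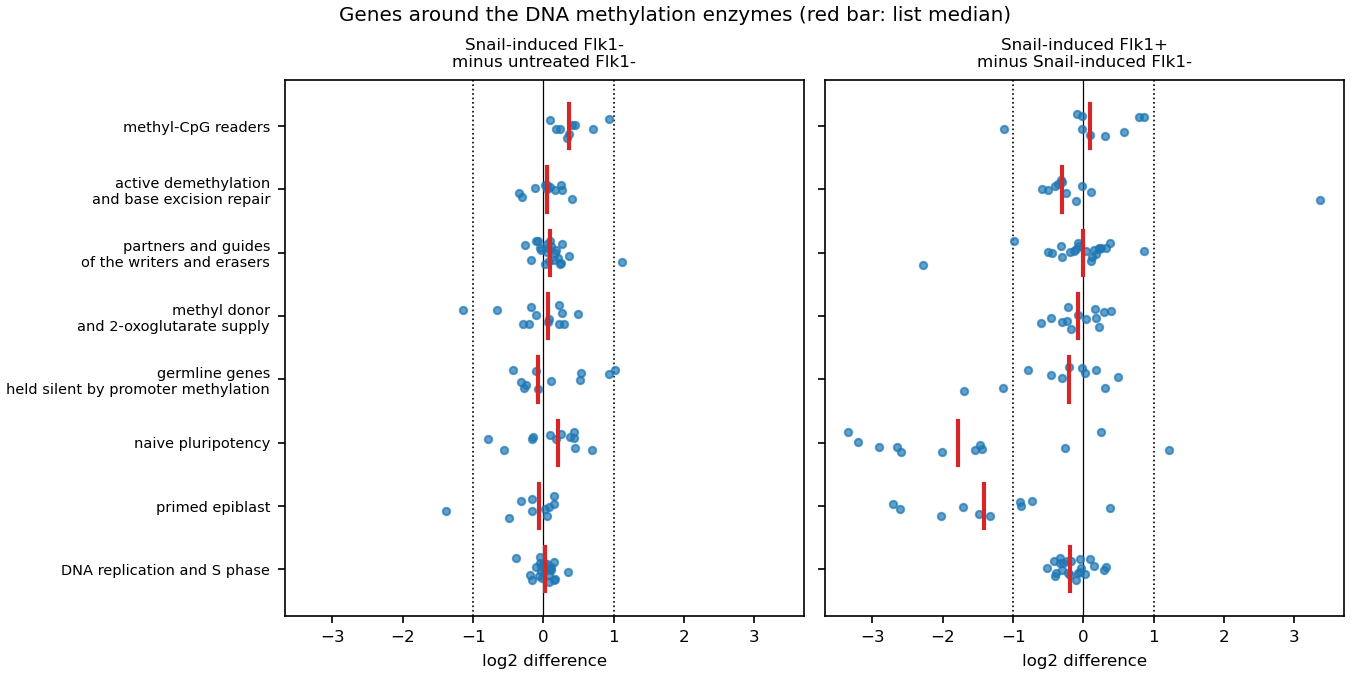
Log2 difference of each measured gene of 8 lists, with a red bar at the list median and dotted lines at 2-fold, for Snail-induced Flk1- minus untreated Flk1- cells (left) and Snail-induced Flk1+ minus Snail-induced Flk1- cells (right). The naive and primed lists lie at -1.78 and -1.41 on the right, and the point far to the right is Gadd45g at 3.37.

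The genes with the most similar profiles were taken for the 3 members whose brightest probe set spans at least 2-fold, by the distance between log2 values centred on each gene's own mean over the 3 arrays. With 3 points per profile, a small distance is easily reached. Nearest to Tet2 were Bmp1 (380.04 in Snail-induced Flk1+, 124 in Snail-induced Flk1- and 80.9 in untreated Flk1- cells, at a distance of 0.04), Tlnrd1 and Fam89a. Nearest to Dnmt3l were Phf11d (31.4, 179 and 127 in that order, at 0.02), Liph and Rpl39l. Nearest to Dnmt3b were Fam171b (194, 369.85 and 444, at 0.01) and the dim genes Krtap19-1 and Mboat4, which were under the floor on 1 and 2 of the arrays.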

How the data were processed

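Per the labels' protocols, biotinylated cRNA was made from 2 ug total RNA of each sorted sample by the standard Affymetrix procedure. The deposited table lists a linear intensity for each probe set on each array, between 0.5 and 18191; its summary method, scaling and software were not given in the sources used here. Array medians of log2(intensity + 9.53) lay between 5.70 and 5.76, so values were used as deposited.

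Names came from the platform annotation, with symbols brought up to date through Entrez IDs (RefSeq, GRCm38.p6). Of 45037 probe sets, 34945 had 1 symbol and were used, 932 had several and 9160 none; 204 kept the annotation's symbol. The probe set with the highest mean stands for its gene. Of 18193 genes, 13974 had it at 25.6 or more on 1 array or more and count as measured. A fold is the antilog of the log2 difference. Against a value under the floor, the other value is divided by the floor and given as at least that fold, and with both under it no fold is given. The added constant is not in that bound, and counts go by the log2 difference. Calls at 2-fold carry no test, because each group had 1 array.

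Members and lists were chosen with earlier results of these data known. All members are named, and part of the genes that the naming rule takes from 8 companion lists (those past 2-fold, up to 4 per direction, else the largest differences). Trim28, Hdac1, Kdm1a, Pcna, Ddx4, Sycp3, Mael, Idh2, Dppa3, Zbtb4, Zfp42, Dppa5a, Utf1, Otx2, Klf4 and Lef1 were picked after their values were seen. Python 3.11.15, numpy 2.4.6 and pandas 2.3.3 were used. Settings varied were array centring, quantile normalisation, averaging the probe sets of a gene, leaving out suffixed probe sets, no floor or one at the 60th percentile, no offset, and thresholds of 1.5-fold and 3-fold.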

Additional observations from a re-analysis of the deposited data

How the results depend on the processing

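With 1 array per group nothing measures the spread between cultures, and dim readings, such as Dnmt3l on the Flk1+ array, the dimmest Tet1 probe set and Tet2 in untreated cells, lie close to the floor. No paired analysis was possible because each group has 1 array and the labels give no replicate numbers. Part of the recomputed member differences could not change. The floor does not enter a difference, and Dnmt3l has a single probe set, so averaging leaves it as it was. The brightest probe sets of Dnmt3a, Uhrf1, Tet1 and Tet2 carry no such suffix, so leaving out suffixed ones changes nothing for them. With these included, 133 of 138 member differences recomputed under the alternatives kept their direction and their side of 2-fold. The others were Dnmt1 in Snail-induced Flk1- against untreated Flk1- cells (-0.05 with quantile normalisation, -0.10 with centring, -0.03 with the mean of all probe sets), and, in Snail-induced Flk1+ against Snail-induced Flk1- cells with the mean of all probe sets, Uhrf1 (-0.15) and Dnmt3b (-1.28). The Tet2 difference in Snail-induced Flk1+ against Snail-induced Flk1- cells ranged from 1.49 to 1.58 and that of Dnmt3l from -2.43 to -2.17.

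In Snail-induced Flk1+ against Snail-induced Flk1- cells, the mean of all probe sets gave 2 members at least 2-fold lower and a median of -0.15. Leaving out suffixed probe sets gave 0 lower and a median of 0.24 over the 4 genes left, and no floor, which lets Tet3 in, a median of -0.31. At 1.5-fold 3 members were lower, against 11.7% of all genes, and at 3-fold 0 were higher. In Snail-induced Flk1+ against untreated Flk1- cells the same settings gave a median of 0.020 for the mean, 0 lower and a median of 0.36 without suffixed probe sets, and a median of -0.13 with no floor; 2 members were higher at 1.5-fold and 1 lower at 3-fold. In Snail-induced Flk1- against untreated Flk1- cells 1 member was higher at 1.5-fold, against 8.57% of all genes. The medians of the companion lists were recomputed with centring and with the mean of all probe sets only. Of these 48 medians, 43 moved by at most 0.1 and 41 kept their sign. Centring moves all lists of a comparison by the same amount, which stayed under 0.1, so no centred median could pass that limit.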
